A study of Mus musculus with 45 samples.

Results

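The genes described here are 10 genes of lipid droplets and fatty acid use, Plin2, Plin3, Dgat1, Dgat2, Pnpla2, Angptl4, Cpt1a, Cpt2, Acadm and Acadl, taken by gene symbol from the 34994 genes of the deposited count tables. All 10 were found once each, and all 10 passed the low-count filter in every comparison. They were read in limb organ cultures of CD1 mouse embryos: forelimbs were excised on gestation day 13 and pooled, limbs of both sexes shared a culture, and they were kept with DMSO (the vehicle control), 10 µM bisphenol S or 50 µM bisphenol S (BPS, a common substitute for bisphenol A) for 3, 24 or 48 h. Each of the 9 groups had 5 libraries of poly-A RNA, 45 in all. Control libraries were also in DMSO, so every group shared the vehicle, the medium and the oxygen-enriched gas phase. The strain label of the 50 µM libraries at 48 h counts upward from CD2 where all others read CD1, and these were analysed as CD1 as the design text states.

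Cells store spare fatty acids as triglyceride in lipid droplets, which perilipins coat and protect. DGAT enzymes make the last bond of triglyceride, the lipase ATGL (gene Pnpla2) makes the first cut when the store is used, and carnitine palmitoyltransferases carry long fatty acids into mitochondria, where acyl-CoA dehydrogenases begin beta oxidation. Many of these genes are known targets of the fatty acid sensing PPAR receptors, and muscle is a well-known user of fatty acids as fuel.

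Promoters were printed for 3 of the genes because they hold a half-site of the motif that PPAR receptors bind and because all 3 changed in control culture, as given further on. The RefSeq promoter table (GRCm38.p6, the assembly of mm10) held 7 of the 10 genes; Angptl4, Dgat1 and Dgat2 were not among them. Each stretch runs 5′ to 3′ on the gene's strand from 250 bases before the start of transcription to 20 bases after it, and capitals mark motif matches. The regions are chr4:86670040-86670309 (minus strand) for Plin2, chr19:3323051-3323320 (plus strand) for Cpt1a and chr3:153944624-153944893 (minus strand) for Acadm.
Plin2: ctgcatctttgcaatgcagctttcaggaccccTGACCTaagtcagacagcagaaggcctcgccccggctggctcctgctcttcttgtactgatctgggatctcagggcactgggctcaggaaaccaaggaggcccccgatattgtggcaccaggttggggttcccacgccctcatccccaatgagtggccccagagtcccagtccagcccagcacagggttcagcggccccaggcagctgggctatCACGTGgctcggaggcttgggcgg
Cpt1a: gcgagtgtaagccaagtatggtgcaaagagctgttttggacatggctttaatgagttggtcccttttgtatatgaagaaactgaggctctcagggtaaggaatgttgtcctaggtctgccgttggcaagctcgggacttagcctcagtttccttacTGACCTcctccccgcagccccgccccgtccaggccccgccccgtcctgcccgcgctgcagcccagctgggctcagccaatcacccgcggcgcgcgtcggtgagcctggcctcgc
Acadm: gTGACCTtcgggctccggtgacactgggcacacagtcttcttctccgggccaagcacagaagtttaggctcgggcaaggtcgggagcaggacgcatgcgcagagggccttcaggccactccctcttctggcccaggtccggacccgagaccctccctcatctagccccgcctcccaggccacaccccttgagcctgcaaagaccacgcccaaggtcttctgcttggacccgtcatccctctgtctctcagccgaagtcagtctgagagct
The half-site AGGTCA, read on both strands in the 300 bases of each table entry, was in 3 of the 7 promoters (Plin2, Cpt1a and Acadm, each as its reverse complement TGACCT) and in 16.3% of all 32851 promoters of the table. In Plin2 it began 218 bases before the start, in Cpt1a 94 and in Acadm 249. The full PPAR response element searched as an exact direct repeat, AGGTCANAGGTCA, was in 0 of the 7 and in 0.0396% of all promoters. The E-box CACGTG lies across the start site of Plin2 and in 7.15% of all promoters. It contains the core hypoxia response element ACGTG, which was found in Plin2 alone of the 7 and in 19.6% of all. The sterol regulatory element, in 1 exact form (0.0913% of all), and the TATA box TATAAA (13.6%) were in 0 of the 7. These matches describe letters in the window only.

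Libraries held 15.2 to 23.1 M reads assigned to genes (median 18.2 M), so the 3 reads taken as the floor of detection equal 0.13 to 0.197 CPM, far below any of the 10 genes. Levels are given as CPM, reads scaled to a library of equal size, with the SD of the 5 libraries of a group. Differences are log2 fold changes ± SE from edgeR's quasi-likelihood test, with Benjamini-Hochberg adjustment across every gene in the test, and "rose" or "fell" marks an adjusted p below 0.05. Nothing in the labels ties the libraries of a group to separate cultures or litters. A p-value here therefore reflects only library-to-library spread, some of which may be technical. In whole limbs, fewer cells of a type and less RNA per cell cannot be told apart. Of 8 adipocyte markers, Adipoq (at most 0.095 CPM) and Lep (at most 0.019 CPM) stayed below the floor as group means. The sum of the 8 reached 5.42 CPM in its highest library. From 3 to 48 h in controls 1 of the 8 was tested, and it rose (log2 change 2.839). At 48 h the 1 tested differed by -0.878 for 50 µM against control and by -1.082 for 50 against 10 µM, with neither called.

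**Figure D1:**
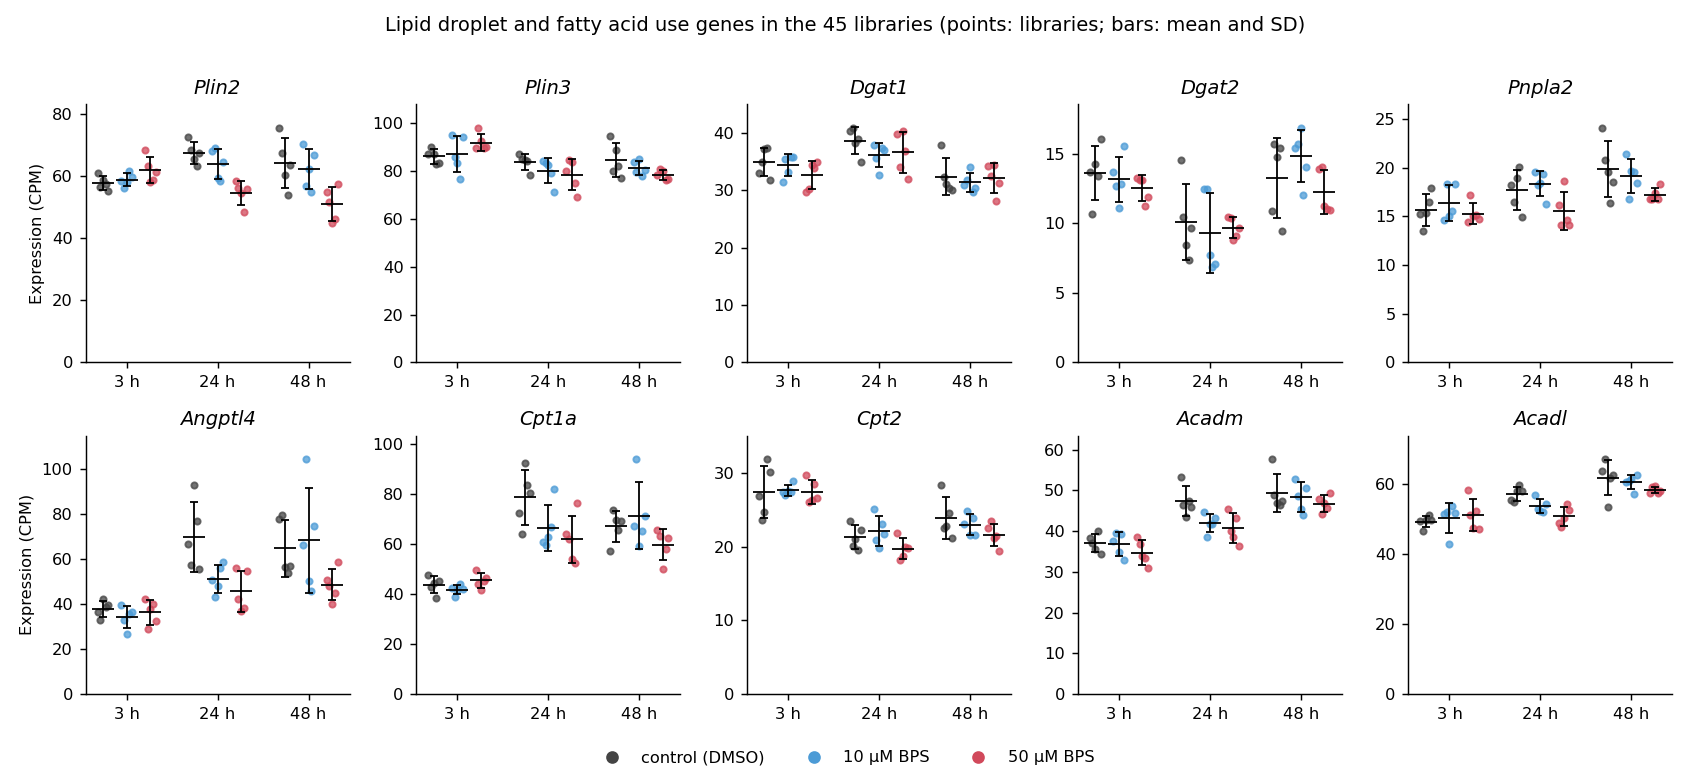
Expression in CPM (y axis, linear from 0) of the 10 genes at 3, 24 and 48 h (x axis) for control, 10 µM and 50 µM BPS; each point is 1 library and bars are the mean and SD of 5. In the Plin2 panel the 50 µM libraries at 24 h, between 48.2 and 58.2 CPM, lie wholly below the control libraries, between 63.1 and 72.5 CPM, and in the Acadl panel the same 2 groups also lie apart.

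Per kilobase of gene length, which allows levels of different genes to be compared, the long-chain dehydrogenase gene Acadl and the perilipin gene Plin3 were the most abundant in 3 h controls, at 24.6 ± 0.81 and 22.8 ± 0.80 CPM per kb (SD, n = 5). Their libraries overlapped. Plin2 followed at 16.4 ± 0.65 CPM per kb and overlapped neither neighbour. Angptl4, Cpt2, Dgat1, Cpt1a and Acadm formed a middle stretch from 11.5 down to 9.49 CPM per kb in which each gene overlapped the next. Pnpla2 (5.19 ± 0.54) and Dgat2 (4.41 ± 0.63) were lowest and overlapped each other. After 48 h in control medium Acadl stood alone at 30.8 ± 2.5 CPM per kb, and Angptl4 (19.7 ± 3.8) had moved up to lie between Plin3 and Plin2, overlapping both. Pnpla2 and Dgat2 were still the lowest pair, at 6.58 ± 0.95 and 4.30 ± 0.94 CPM per kb, now with no overlap.

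Culture time was examined first, in vehicle alone. Between 3 and 24 h in control medium 5 of the 10 rose (Cpt1a, Angptl4, Acadm, Plin2, Acadl) and 2 fell (Cpt2, Dgat2). Of all 16536 genes tested 40.2% were called in this comparison, 20% higher and 20.1% lower. The 7 of 10 called stand above that share, on few genes. The share takes in genes read less than any of the 10, and the 10 were chosen with earlier results of these data known. The median log2 change of the 10 was 0.18, against -0.009 for all genes tested. Between 24 and 48 h 1 gene fell (Dgat1) where 16% of 16694 genes were called and 6.55% were lower. From 3 to 48 h 5 rose (Cpt1a, Angptl4, Acadm, Acadl, Pnpla2) and 0 fell, with 49.3% of 16850 genes called and 24.5% higher. These 3 comparisons share control libraries and are not independent of each other.

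Of the droplet coat genes, Plin2 rose between 3 and 24 h and Plin3 was not called. Plin2 (chr4:86648386-86670060, minus strand, mm10) encodes the perilipin found on droplets of most non-fat cells. Its control libraries 1 to 5 read 61.1, 56.4, 58.6, 57.4 and 55.1 CPM at 3 h, then 72.5, 68.4, 65.3, 63.1 and 67.3 CPM at 24 h. Every 24 h library was above every 3 h library, and Plin2 rose by 0.20 ± 0.054 (adjusted p = 0.00452). At 48 h the control libraries spread from 53.9 to 75.4 CPM and overlapped both earlier times. Neither the difference from 3 h, 0.14 ± 0.077 (adjusted p = 0.143), nor that from 24 h, -0.08 ± 0.079 (adjusted p = 0.57), was called. The perilipin of nascent droplets, Plin3 (chr17:56277476-56292873), stayed between 77.2 and 94.7 CPM in all 15 control libraries and was not called in any of the 3 comparisons.

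The triglyceride synthases followed different courses. Dgat2 (chr7:99153658-99182719), the enzyme that works at the droplet surface, averaged 13.6 ± 1.96 CPM at 3 h, 10.1 ± 2.75 CPM at 24 h and 13.3 ± 2.88 CPM at 48 h. It fell between 3 and 24 h by 0.45 ± 0.15 (adjusted p = 0.0249), although the groups overlapped. That call was lost without control replicate 3 or 5 at 3 h or without replicate 3, 4 or 5 at 24 h, with adjusted p between 0.0548 and 0.0719. Its later difference, 0.39 ± 0.18 from 24 to 48 h, was not called (adjusted p = 0.169). Dgat1 (chr15:76502015-76511953), the synthase of the endoplasmic reticulum, read 40.3, 40.8, 38.2, 38.9 and 34.9 CPM at 24 h and 37.9, 32.3, 31.1, 30.4 and 30.1 CPM at 48 h. Replicate 1 of 48 h was the only library of that group within the 24 h range. Dgat1 fell by 0.26 ± 0.079 in this interval (adjusted p = 0.0329). The call was lost when any 1 of 8 of the 10 libraries was left out (all but replicate 5 at 24 h and replicate 1 at 48 h), with adjusted p between 0.0587 and 0.0897, and also without the low-count filter (adjusted p = 0.0805).

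Pnpla2 (chr7:141455198-141460743), the gene of the lipase ATGL, climbed in smaller steps: 15.7 ± 1.63 CPM at 3 h, 17.7 ± 2.03 CPM at 24 h and 19.9 ± 2.87 CPM at 48 h. Only the whole interval passed the test, with a rise of 0.33 ± 0.11 from 3 to 48 h (adjusted p = 0.0154). Angptl4 (chr17:33773750-33781575) encodes a secreted inhibitor of lipoprotein lipase. Its control libraries 1 to 5 read 36.3, 32.9, 42.1, 38.5 and 39.6 CPM at 3 h, and 66.5, 57.6, 93.2, 77.1 and 55.5 CPM at 24 h. The groups lay wholly apart, the later one with a spread of 15.5 CPM (SD), and Angptl4 rose by 0.87 ± 0.14 (1.83-fold, adjusted p = 0.000428). At 48 h it averaged 64.9 ± 12.6 CPM, 0.77 ± 0.11 above 3 h (adjusted p = 3.35e-05).

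Of the carnitine shuttle, one enzyme rose and the other fell. Cpt1a (chr19:3323301-3385732, plus strand), the outer-membrane transferase and gatekeeper of mitochondrial fatty acid entry, read 47.6, 42.8, 44.6, 38.5 and 45.1 CPM in control libraries 1 to 5 at 3 h, and 72.6, 64.0, 92.4, 83.7 and 80.6 CPM at 24 h. It rose 1.78-fold (0.83 ± 0.081, adjusted p = 1.28e-07), with no overlap. At 48 h it averaged 67.0 ± 6.25 CPM, still 0.61 ± 0.076 above 3 h (adjusted p = 4.58e-06), and its difference from 24 h, -0.24 ± 0.092, was not called (adjusted p = 0.0967). Cpt2 (chr4:107903981-107923610), the inner-membrane transferase, averaged 27.4 ± 3.495 CPM at 3 h and 21.3 ± 1.61 CPM at 24 h without overlap. It fell by 0.38 ± 0.088 (adjusted p = 0.0016). At 48 h it averaged 23.9 ± 2.79 CPM, and its difference from 3 h, -0.21 ± 0.10, was not called (adjusted p = 0.0948).

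Both acyl-CoA dehydrogenase genes rose by 24 h. Acadm (chr3:153922357-153944632, minus strand), for medium chains, went from 37.1 ± 2.15 CPM to 47.3 ± 3.66 CPM, and Acadl (chr1:66830839-66863277, minus strand), for long chains, from 49.3 ± 1.63 CPM to 57.3 ± 2.02 CPM, each without overlap. Acadm was higher by 0.33 ± 0.067 (adjusted p = 0.000418) and Acadl by 0.20 ± 0.053 (adjusted p = 0.00472). From 3 to 48 h both rose: at the later time Acadm was 0.40 ± 0.074 (adjusted p = 0.000236) and Acadl 0.32 ± 0.066 (adjusted p = 0.000789) above 3 h. Acadl overlaps a processed pseudogene on its strand and a small RNA gene on the other. These held 2.22 and 0.51 reads per library on average against 1020 for Acadl.

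**Figure D2:**
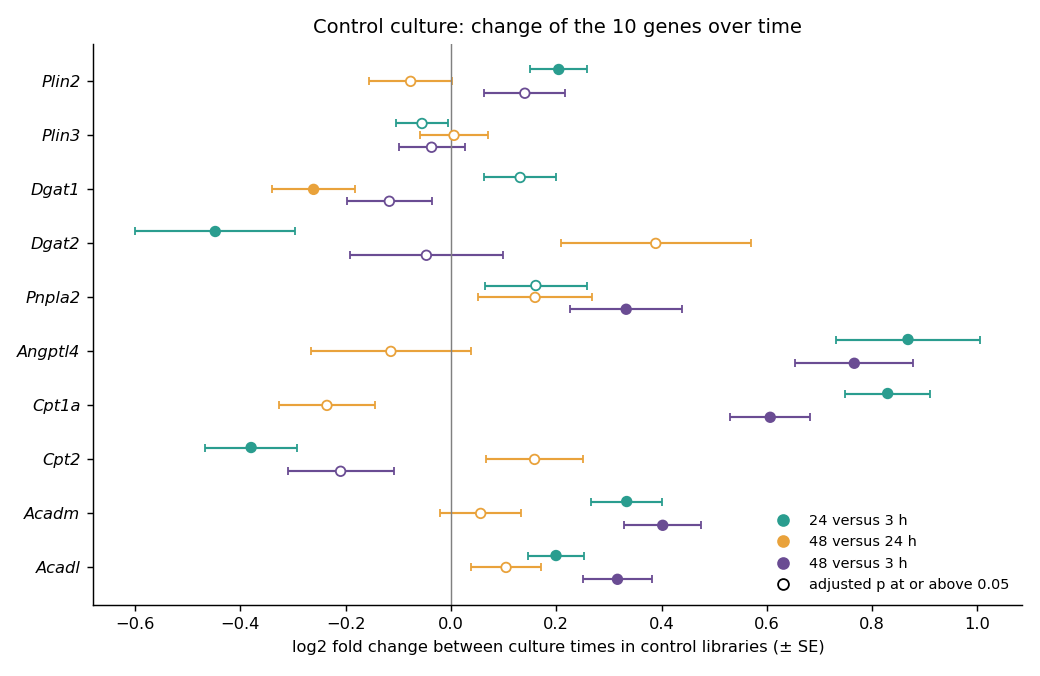
Log2 fold change ± SE (x axis) of each gene (y axis) between culture times in control libraries, 5 per time; filled points have an adjusted p below 0.05 in edgeR. Angptl4 and Cpt1a, at 0.87 and 0.83 from 3 to 24 h, stand farthest to the right, and Dgat2 and Cpt2 fall over the same interval.

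Cell type markers moved with culture time as well. In 3, 24 and 48 h controls the summed level of 11 skeletal muscle markers ran from 1081 to 1209, from 2151 to 3292 and from 3369 to 4995 CPM, and that of 10 macrophage markers from 76.7 to 85.3, from 132.4 to 181.5 and from 216.5 to 293.8 CPM. The sums of 8 cartilage markers at these times were 3902 to 4479, 9909 to 10770 and 12190 to 19170 CPM, and those of 8 endothelium markers 372.7 to 391.9, 231.4 to 276.4 and 233.4 to 319.5 CPM. Between 3 and 24 h 10 of 10 muscle, 7 of 10 macrophage, 7 of 8 cartilage and 7 of 7 osteoblast markers tested rose, and 1 macrophage marker fell. In the same interval 8 of 8 endothelium, 7 of 10 erythroid and 6 of 10 limb bud mesenchyme markers fell. Of 8 epidermis markers 3 rose and 2 fell, and of 7 Schwann and glia markers 1 rose and 4 fell. Of all 16536 genes tested 40.2% were called there, 20% higher and 20.1% lower. Summed levels at 3 h were 2278 to 2712 CPM for erythroid, 2556 to 2884 CPM for mesenchyme and 1574 to 1782 CPM for osteoblast markers. At 24 h they were 1210 to 2188, 2290 to 2519 and 2565 to 3150 CPM. Of 19 hypoxia targets 17 had a positive difference in that interval and 2 rose (Adm and P4ha1), with a median of 0.375. The part of these shifts in the changes of the 10 genes was not tested.

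BPS was then compared with vehicle at each time. At 50 µM and 24 h edgeR called 1 of the 10 genes, Plin2, which fell, where 0.375% of 16512 genes were called and 0.127% were lower. In the 50 µM libraries 1 to 5 Plin2 read 58.2, 56.1, 54.6, 48.2 and 55.7 CPM, against 72.5, 68.4, 65.3, 63.1 and 67.3 CPM in the controls. The highest treated library was below the lowest control. The means were 54.5 ± 3.77 and 67.3 ± 3.54 CPM (SD, n = 5 each), a difference of -0.29 ± 0.059 or 1.23-fold (adjusted p = 0.0405). The call sits close to the threshold: it was lost without control replicate 1, 2, 3 or 4 or without 50 µM replicate 2, 3 or 4, at adjusted p between 0.0682 and 0.141, while the difference stayed between -0.32 and -0.26 in all 10 such fits. The controls here are the 24 h libraries in which Plin2 stood above its 3 h level, so the rise in culture and this fall share 5 libraries.

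The other 9 genes were also lower at 50 µM and 24 h, with none called in the main edgeR fit. With the replicate number as a block, 3 of the 10 were called (Plin2, Acadm and Acadl), and 949 of all genes in place of 62. The values below are from the main fit. All 10 differences were negative, with a median of -0.172 against 0.003 for all genes tested, of which 8389 of 16512 were positive. An unadjusted p below 0.05 was found for 5 of the 10 and for 2048 of all genes. Angptl4 showed the largest difference, -0.61 ± 0.18 (adjusted p = 0.212). Its 50 µM libraries read 56.1, 42.5, 37.1, 38.2 and 54.7 CPM against 66.5, 57.6, 93.2, 77.1 and 55.5 CPM in controls, so treated replicate 1 exceeded the lowest control. Cpt1a stood at 64.0, 62.0, 54.2, 52.4 and 76.4 CPM against 72.6, 64.0, 92.4, 83.7 and 80.6 CPM, again with overlap (-0.34 ± 0.11, adjusted p = 0.237). Acadl read 49.0, 47.8, 50.3, 54.4 and 52.5 CPM under 50 µM and 55.6, 54.9, 58.1, 59.8 and 57.9 CPM in controls. Its groups lay apart, as did those of Plin2, yet the difference of -0.17 ± 0.055 was not called (adjusted p = 0.213). Acadm averaged 40.7 ± 3.66 CPM against 47.3 ± 3.66 CPM (-0.21 ± 0.071, adjusted p = 0.223). Plin3, Cpt2, Pnpla2, Dgat1 and Dgat2 differed by -0.18 to -0.05, with adjusted p between 0.495 and 0.926.

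At 48 h none of the 10 passed at 50 µM in edgeR, where 1% of 16663 genes were called. An unadjusted p below 0.05 was found for 4 of the 10 and for 2157 of all genes. DESeq2 called 2 of the 10 (Plin2 and Angptl4) and 426 of all genes. All 10 differences were again negative, now against other control and treated libraries, with a median of -0.135 against -0.004 for all genes. Plin2 read 54.7, 51.6, 44.97, 46.1 and 57.4 CPM under 50 µM and 75.4, 67.4, 60.2, 53.9 and 63.4 CPM in controls. Control replicate 4 and treated replicates 1 and 5 overlapped. The difference was -0.34 ± 0.089 (adjusted p = 0.092) in edgeR, -0.33 in DESeq2 (adjusted p = 0.0303), and it passed without the low-count filter (adjusted p = 0.02) and in a joint fit of the 45 libraries (adjusted p = 0.00289). Angptl4 averaged 48.5 ± 6.90 CPM against 64.9 ± 12.6 CPM (-0.42 ± 0.12, adjusted p = 0.143), Pnpla2 17.2 ± 0.68 CPM against 19.9 ± 2.87 CPM (-0.21 ± 0.097, adjusted p = 0.369) and Cpt1a 59.7 ± 6.19 CPM against 67.0 ± 6.25 CPM (-0.17 ± 0.080, adjusted p = 0.384). Dgat1 was nearest to no difference, at -0.02 ± 0.082 with a 95% interval from -0.18 to 0.14.

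At 3 h, 50 µM left 0 of the 10 genes called by edgeR, where 0.0538% of 16722 genes were called, or by DESeq2, where 59 were. An unadjusted p below 0.05 was found for 0 of the 10 and for 1334 of all genes. With the replicate number as a block, edgeR called 256 genes in place of 9 and still 0 of the 10. Plin2 read 68.2, 63.2, 58.1, 58.6 and 61.2 CPM under 50 µM and 61.1, 56.4, 58.6, 57.4 and 55.1 CPM in controls, a difference of 0.10 ± 0.054 (adjusted p = 0.671). Of the 10 differences 5 were positive and the median was -0.014.

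**Figure D3:**
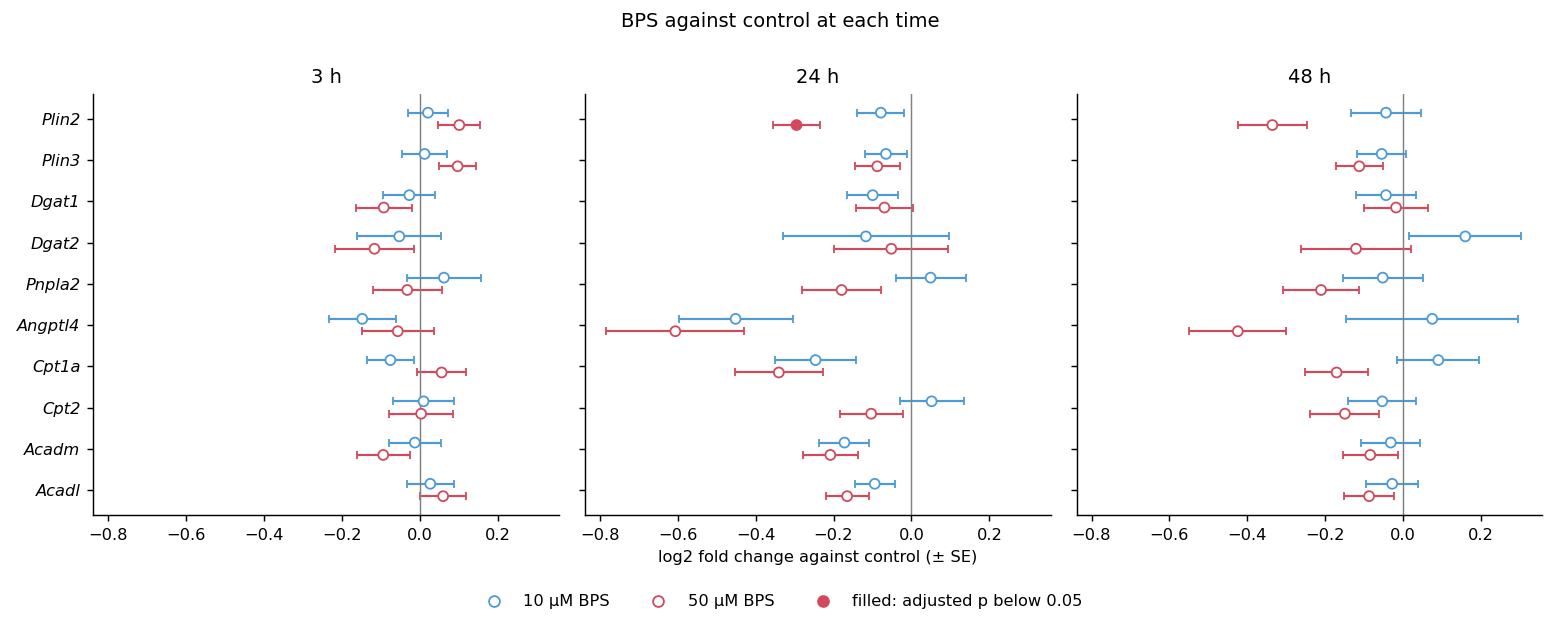
Log2 fold change ± SE (x axis) of each gene (y axis) for 10 and 50 µM BPS against the same 5 control libraries at 3, 24 and 48 h; filled points have an adjusted p below 0.05 in edgeR. The only filled point is Plin2 at 50 µM and 24 h, at -0.29, and all 50 µM points at 24 and 48 h lie left of 0.

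The lower dose gave no call. At 10 µM edgeR and DESeq2 each called 0 of the 10 genes and 0% of all genes at 3 h (16654 tested), 24 h (16529) and 48 h (16725), with 329, 494 and 438 genes at an unadjusted p below 0.05. Of the 10 genes 0, 3 and 0 were below that unadjusted level. At 24 h these were Angptl4 (51.2 ± 6.19 CPM, -0.45 ± 0.15), Cpt1a (66.3 ± 9.15 CPM, -0.25 ± 0.10) and Acadm (42.0 ± 2.31 CPM, -0.17 ± 0.064), each with an adjusted p of 0.9995 and with groups that overlapped. Their means at 10 µM lay between those of control and 50 µM, and all 3 groups were read from the same time point with 1 set of controls. The 3 genes were picked for their p at 10 µM, so this order is partly built in. Plin2, Plin3 and Acadl had the same order at 24 h. Cpt2 and Pnpla2 averaged above control at 10 µM, and Dgat1 and Dgat2 averaged below their 50 µM level. At 48 h the 10 µM means of Angptl4 (68.4 against 64.9 CPM) and Cpt1a (71.35 against 67.0 CPM) lay above control, while that of Acadm lay below it. The 10 µM libraries of Angptl4 spread from 46.0 to 104.4 CPM there, across the whole control range.

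Set directly against each other, 50 and 10 µM gave 0 calls among the 10 genes in edgeR at 3 h (0% of 16702 genes called), 24 h (0% of 16587) or 48 h (0.921% of 16505); 1, 2 and 3 of the 10 had an unadjusted p below 0.05, and DESeq2 called 0, 0 and 1. Plin2 came nearest. At 24 h its 50 µM libraries, 48.2 to 58.2 CPM, touched but did not overlap the 10 µM libraries, 58.2 to 69.0 CPM (-0.22 ± 0.064, 95% interval -0.35 to -0.10, adjusted p = 0.48). At 48 h the difference was -0.29 ± 0.079 (interval -0.45 to -0.14, adjusted p = 0.0954 in edgeR and 0.0356 in DESeq2). For Dgat1 the interval at 48 h ran from -0.11 to 0.16.

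Whether the 50 µM response itself changed with time was tested as an interaction in 1 fit of 18432 genes. From 3 to 24 h 0% of genes and 0 of the 10 were called, from 24 to 48 h likewise 0% and 0, and from 3 to 48 h 0.0922% of genes and again 0 of the 10. At an unadjusted p below 0.05 there were 5, 0 and 2 of the 10 in these 3 tests, and 1212, 640 and 1538 of all genes. DESeq2 called 0, 0 and 1 of the 10, and 77 of all genes in the last test. Plin2 had the largest shift from 3 to 48 h for its error, -0.43 ± 0.099 (adjusted p = 0.0528 in edgeR and 0.013 in DESeq2), and a like one from 3 to 24 h, -0.40 ± 0.099 (adjusted p = 0.34). Its response at 48 h differed from that at 24 h by -0.04 ± 0.099, with a 95% interval from -0.23 to 0.16.

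The wider pathway was read from lists of genes outside the 10. Of 15 droplet coat and assembly genes 10 were tested at 24 h and 0 passed at 50 µM, with Bscl2 (seipin, which shapes nascent droplets; -0.23 ± 0.076, adjusted p = 0.219) and Cavin1 (-0.21 ± 0.090, adjusted p = 0.354) having the smallest p. At 48 h 1 of 11 fell: Cav1, a caveolar coat protein, by 0.35 ± 0.076 (adjusted p = 0.0404). The perilipins typical of fat and muscle were hardly read, with Plin1 at most 0.152, Plin4 at most 0.773 and Plin5 at most 0.476 CPM as a group mean. Upstream triglyceride synthesis had 0 of 12 called at both times, with Lpin1 (0.22 ± 0.086, adjusted p = 0.302) and Lpin2 (0.13 ± 0.061, adjusted p = 0.405) first at 24 h, and Agpat5 (0.25 ± 0.065, adjusted p = 0.083) and Lpin1 (0.23 ± 0.082, adjusted p = 0.249) first at 48 h.

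Lipolysis genes had 0 of 6 called at 24 and at 48 h, with medians of 0.078 and 0.068. The hormone-sensitive lipase gene Lipe differed by 0.25 ± 0.092 at 24 h (adjusted p = 0.255) and the monoglyceride lipase gene Mgll by 0.16 ± 0.091 at 24 h (adjusted p = 0.484) and 0.18 ± 0.11 at 48 h (adjusted p = 0.518). In the list of fatty acid uptake and activation 0 of 18 were called at 24 h. Its first 2 were Lpl, the lipoprotein lipase that ANGPTL4 inhibits, at 29.4 ± 1.53 CPM against 37.0 ± 3.02 CPM in controls (-0.32 ± 0.071, adjusted p = 0.0536, groups apart), and Cd36, a fatty acid translocase (-0.36 ± 0.098, adjusted p = 0.11). At 48 h 1 of 18 rose, Acsl3, a droplet-associated acyl-CoA synthetase (0.32 ± 0.059, adjusted p = 0.0131), and 1 fell, the transporter gene Slc27a3 (by 0.40 ± 0.079, adjusted p = 0.0257).

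Mitochondrial beta oxidation outside the 10 had 0 of 18 called at each time, with 3 of 18 differences positive at 24 h and 4 at 48 h. The thiolase gene Acaa2 (-0.25 ± 0.074, adjusted p = 0.164) and the carnitine carrier gene Slc25a20 (-0.24 ± 0.084, adjusted p = 0.232) came first at 24 h, and the same 2 genes at 48 h, at -0.23 ± 0.082 for Slc25a20 and -0.24 ± 0.090 for Acaa2. Peroxisomal oxidation had 0 of 14 called at both times. The carnitine acetyltransferase gene Crat came first at 24 h (-0.15 ± 0.052, adjusted p = 0.246) and the bifunctional enzyme gene Ehhadh at 48 h (0.39 ± 0.15, adjusted p = 0.258). Of the PPAR receptors and their partners 0 of 10 were called at either time, with the corepressor genes Ncor1 (0.11 ± 0.049, adjusted p = 0.347) and Nrip1 (0.15 ± 0.073, adjusted p = 0.412) first at 24 h and the coactivator gene Ppargc1a (0.43 ± 0.19, adjusted p = 0.358) at 48 h. Ppard was the PPAR gene with reads in quantity, at 62.2 ± 1.75 CPM under 50 µM and 63.9 ± 4.60 CPM in controls at 24 h, while Ppara averaged 1.48 ± 0.20 and 1.61 ± 0.62 CPM there. Known PPAR targets outside the 10 had 0 of 16 called at 24 h and 0 of 17 at 48 h, with Cd36, given above, among the genes of smallest p at 24 h. Over those times the list's medians were -0.083 and -0.089.

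Sterol targets of the transcription factor SREBP rose in 5 of 12 cases at 24 h and in 11 of 12 at 48 h (medians 0.313 and 0.533), and fatty acid synthesis genes in 3 and 6 of 12 (medians 0.186 and 0.26); 0 fell in either list. The stearoyl-CoA desaturase gene Scd1 rose from 77.7 ± 5.28 CPM to 147.9 ± 19.5 CPM at 48 h (0.92 ± 0.081, adjusted p = 3.58e-05). Both lists were chosen with results of these libraries known, and their counts are no independent evidence of direction.

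**Figure D4:**
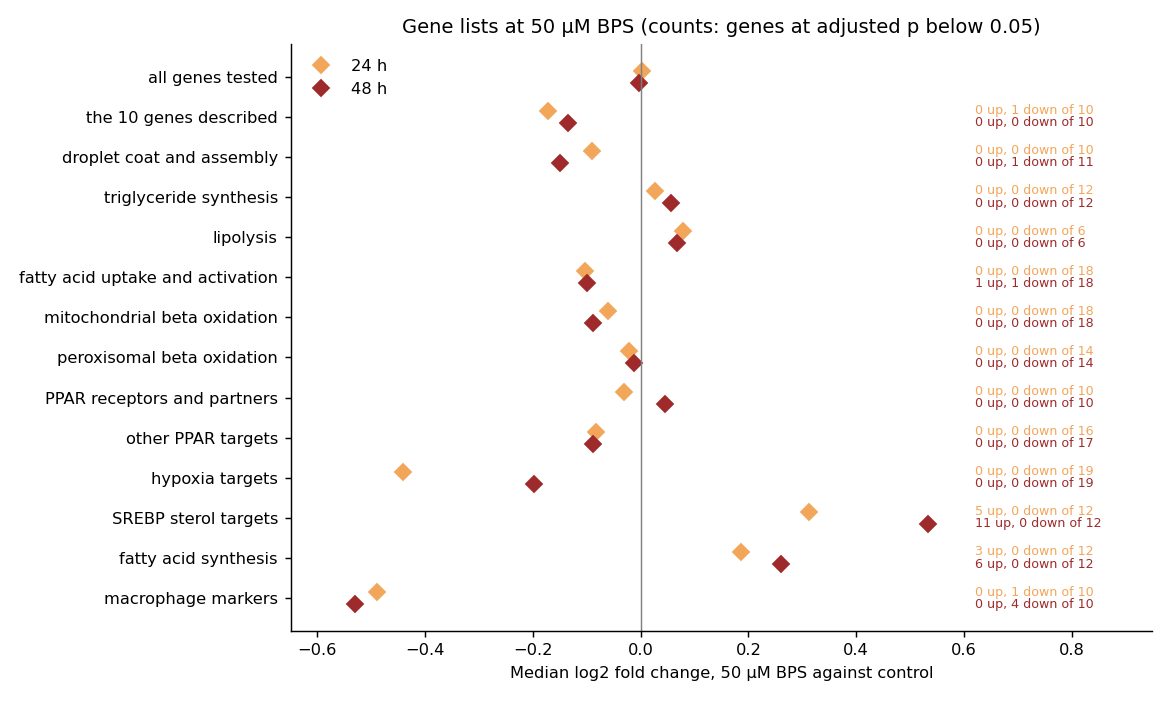
Median log2 fold change (x axis) of each gene list (y axis) for 50 µM BPS against control at 24 and 48 h, 5 libraries per group, with the number of genes that rose or fell at an adjusted p below 0.05 printed at the right. The 10 genes described lie at -0.172 and -0.135, the sterol targets at 0.313 and 0.533 and the macrophage markers at -0.49 and -0.53.

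Cell type markers and hypoxia targets were also read at 50 µM, at the times when Plin2 was lower. Macrophage markers were lower in 10 of 10 cases at 50 µM and both later times: 1 fell at 24 h (median -0.49) and 4 at 48 h (median -0.53). Their summed level was 103.9 to 132.7 CPM against 132.4 to 181.5 CPM in controls at 24 h, and 144.6 to 222.2 CPM against 216.5 to 293.8 CPM at 48 h. At 10 µM it was 127.5 to 167.0 CPM at 24 h and 219.9 to 244.1 CPM at 48 h. Hypoxia targets, which vary widely between control libraries, had a median of -0.442 at 24 h, with 1 of 19 differences positive and 0 called. Vegfa averaged 113.4 ± 26.9 CPM against 162.1 ± 78.9 CPM at that time. At 48 h the median was -0.198, with 2 of 19 positive and 0 called. First in p were Adm (-1.10 ± 0.45, adjusted p = 0.34) and Mxi1 (-0.15 ± 0.078, adjusted p = 0.44) at 24 h. Hilpda, a droplet gene named for its induction by hypoxia, averaged 13.3 ± 2.35 CPM against 12.3 ± 1.802 CPM at 24 h (0.12 ± 0.12, adjusted p = 0.737). At 48 h Kdm3a (-0.25 ± 0.098, adjusted p = 0.28) and Ldha (-0.40 ± 0.16, adjusted p = 0.311) came first. Endothelium markers were lower in 8 of 8 cases at both times, with 0 and 1 called, and their sum was 220.6 to 231.2 CPM against 231.4 to 276.4 CPM in controls at 24 h. At 48 h it was 208.9 to 255.3 CPM against 233.4 to 319.5 CPM. Epidermis markers were lower in 8 of 8 cases at 24 h (median -0.307, 0 called) and in 4 of 8 at 48 h (median -0.016, 0 called). Their summed level at 24 h was 155.1 to 302.7 CPM against 169.2 to 380.9 CPM in controls. The part of macrophage, endothelium, epidermis or hypoxia signals in the lower levels of the 10 genes was not tested.

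In control culture from 3 to 24 h 40.2% of all 16536 genes tested were called, 20% higher and 20.1% lower. The uptake list was the one with the most calls among the lipid use lists: 10 of 17 rose and 1 fell. The lists that follow stood nearer to the share of all genes, and every count rests on few genes. Cd36 went from 8.23 ± 0.88 CPM to 23.8 ± 2.33 CPM (1.51 ± 0.10, adjusted p = 1.58e-10), the heart-type fatty acid binding protein gene Fabp3 rose by 1.14 ± 0.12 (adjusted p = 7.72e-08), the fatty acid transporter gene Slc27a1 by 0.47 ± 0.063 (adjusted p = 3.91e-06) and the acyl-CoA synthetase gene Acsl1 by 0.67 ± 0.091 (adjusted p = 4.94e-06). Of 6 lipolysis genes 2 rose and 1 fell, led by Mgll, from 10.7 ± 1.33 CPM to 23.01 ± 2.21 CPM (1.08 ± 0.10, adjusted p = 2.1e-08). Triglyceride synthesis had 4 of 12 rise and 2 fall, and droplet coat and assembly 3 of 10 rise and 0 fall. In the list of mitochondrial beta oxidation, which takes in related genes such as Acacb and Cpt1c, 1 of 18 rose and 4 fell. The rises of Cpt1a, Acadm and Acadl were thus not shared by most of that list. Its called genes with the smallest adjusted p were Echs1 (-0.26 ± 0.050, adjusted p = 0.00027), Acacb (-0.56 ± 0.11, adjusted p = 0.000465), Cpt1c (0.35 ± 0.085, adjusted p = 0.00281) and Hadh (-0.19 ± 0.054, adjusted p = 0.00775).

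Across the 45 libraries, after the mean of each culture time was subtracted, Cpt1a and Angptl4 tracked each other most closely of the 10, with a Pearson r of 0.76. Each was the other's most alike gene of 12068 compared at an average of at least 5 CPM. Plin2 correlated with 8 of the other 9 at 0.26 or more and with Dgat1 at 0.16, and Angptl4 also with Plin2 and Acadl at 0.55 each. Dgat2 reached at most 0.27 with any of the 10. Outside the 10, the genes most alike Plin2 were Lcp1 (0.759), Akr1b8 (0.736) and Gusb (0.733), those of Angptl4 Acaa2 (0.72) and Grn (0.718) after Cpt1a, and those of Dgat2 Eno2 (0.688), Bhlhe40 (0.683) and P4ha1 (0.66). Acadl was most like Cwc15 (0.653), Psma1 (0.647) and the carnitine carrier gene Slc25a20 (0.639), and Acadm like Slc7a8 (0.687), S100a11 (0.649) and Lgmn (0.647). The 45 libraries differ in dose and depth and may differ in cell makeup, and only the mean of each culture time was subtracted. Dose differences therefore remain in these values, and they carry no test.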

How the data were processed

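RNA sequencing read counts per gene were taken from the tables the authors deposited, in which each of 45 libraries has raw counts and each gene a length. Per the submitters' processing notes, CASAVA 1.8, STAR 2.5, HTSeq 0.6.1, DESeq2 version 2 and mm10 were used. Strand use in counting is not given in the sources used here. Fold changes and normalized values of the authors were not used. Tables were joined by gene ID. The 2608195 pairs of control counts that recur between tables held 0 differences, and no 2 libraries of a group looked like 1 library deposited again.

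Levels are CPM with TMM factors over the 45 libraries. For each comparison of 10 libraries, edgeR 4.0.16 (R 4.3.3) was run with TMM scaling, its low-count filter and a robust two-sided quasi-likelihood test, and p was adjusted (Benjamini-Hochberg) across every gene in the test. Interactions came from 1 fit of 45 libraries. SE is the log2 fold change divided by the root of F, and 95% intervals use that SE with a normal approximation. The script was tested on simulated counts. Alternatives were DESeq2 1.42.0, RLE scaling, no low-count filter, a replicate block, a joint fit and leaving out each library. Libraries of one number deviated together in all 5 pairs for 50 µM against control at 3 h (r 0.114 to 0.243), so the numbers were taken to pair the libraries there.

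The 10 genes and the gene lists were chosen with earlier results of these data known. Named genes outside the 10 are, per list and comparison, up to 4 called genes with the smallest adjusted p, or the 2 with the smallest p where none was called, and the 3 genes most alike each of the 10. Some genes that this rule names are not reported here. Other genes named for context, such as Plin1, Ppard, Vegfa and Hilpda, were picked after their values were seen. Promoters are from RefSeq, GRCm38.p6.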

Additional observations from a re-analysis of the deposited data

Results flagged for a closer look

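Of 90 groups of 5 libraries (10 genes in 9 groups), 5 held a library far from the other 4 by Dixon's gap test, where chance alone gives about 1 in 20 groups. Control replicate 1 at 48 h was the highest library of its group for both Acadm, at 57.64 CPM against 48.87 for the next, and Dgat1, at 37.93 CPM against 32.27. The other 3 were in 3 h libraries. Cpt2 read 28.89 CPM in 10 µM replicate 5, against 27.49 for the next. Acadl read 42.88 CPM in 10 µM replicate 3, below the next at 51.44 CPM, and Pnpla2 read 17.15 CPM in 50 µM replicate 2, above the next at 15.09 CPM.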

How the results depend on the processing

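Over 2550 values of the 10 genes under alternatives, 2413 kept direction and call, 21 lost a call, 26 gained one, 90 uncalled values changed sign and 0 changed sign with a call. With library totals in place of TMM, 6 of 90 levels moved by over 1 SD.

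Of the 10 genes, those called for 50 µM against control at 24 h were 1 in edgeR and 3 with the replicate block (Plin2, Acadm, Acadl). At 48 h, 0 in edgeR became 2 with DESeq2, 1 without the low-count filter and 1 in the joint fit of 45 libraries. For 50 against 10 µM, 0 became 1 with the block at 24 h, and at 48 h 1 with DESeq2, without the filter, with the block and in the joint fit. For control 48 against 24 h, 1 became 0 without the filter and 2 with the block. For the shift of the 50 µM response from 3 to 48 h, 0 became 1 with DESeq2, without the filter and with the block. Leaving out 1 library gave 0 to 1 for 50 µM at 24 h, for 50 against 10 µM at 48 h, for control 48 against 24 h and for that shift.

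Counts over all genes moved more. For 50 µM at 3 h, 9 became 59 with DESeq2, 60 without the filter, 256 with the block, 16 in the joint fit and 1 to 18 without 1 library. At 24 h, 62 became 266, 2.4e+02 (to the nearest 10), 949, 104 and 2 to 315 in the same order. At 48 h, 167 became 426, 258, 70, 477 and 55 to 282. For 10 µM at 3 h, 0 became 1 without the filter. For 50 against 10 µM at 3 h, 0 became 7 with DESeq2, 13 without the filter, 1 in the joint fit and 0 to 2 without 1 library. At 24 h, 0 became 37 with DESeq2, 2 with RLE scaling, 41 without the filter, 181 with the block, 10 in the joint fit and 0 to 12 without 1 library. At 48 h, 152 became 352 with DESeq2, 469 without the filter, 328 with the block and 88 to 203 without 1 library. For control 48 against 24 h, 2670 became 4063 in the joint fit. For the shift from 3 to 48 h, 17 became 77 with DESeq2, 28 with the block, 10 with only the 20 libraries of its 4 groups and 6 to 23 without 1 library, and for that from 24 to 48 h, 0 became 0 to 1. The cause was not tested.

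Same-numbered libraries all correlated above 0.1 only for 50 µM against control at 3 h. Elsewhere the numbers were not taken to pair the libraries. For 50 µM against control at 24 h, r was 0.079 to 0.246, with a mean of 0.157. At 3 h the mean was 0.176, and at both times 4 of 5 libraries correlated best with their own number. The means between unlike numbers, -0.038 at 24 h and -0.044 at 3 h, are no separate baseline. Each group was centred on its own mean, which ties them to the means of like numbers. For 50 against 10 µM at 24 h all 5 did. The main fits, which have no block, leave any such pairing unused. Depth was not varied, so its limit was not measured; all 10 genes lay above the floor of 3 reads in every library.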

Other observations

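Dgat2 had the highest coefficient of variation of the 10 genes in controls and at 10 µM at 24 h, but not at 50 µM. It was 27.3% in controls and 30.9% at 10 µM, against 7.78% at 50 µM, where all 5 libraries lay between 8.77 and 10.4 CPM. In controls the libraries ran from 7.35 to 14.5 CPM. Angptl4 varied most at 48 h and 10 µM, with a coefficient of variation of 34.1%, against 19.5% in controls and 14.2% at 50 µM. These differences in spread were not tested.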
